A study of Homo sapiens with 18 samples.

Results

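ZNNT1, LINC00899, NEAT1 and MALAT1 are 4 long noncoding RNA genes among the 57905 genes counted in 2 human myeloma cell lines treated with amiloride or TG003. They were chosen by their fold changes under the drugs in these same libraries, so all 4 drug comparisons are given for them as a description, without a test. The gene identifiers were ENSG00000261087 for ZNNT1, ENSG00000231711 for LINC00899, ENSG00000245532 for NEAT1 and ENSG00000251562 for MALAT1. The genes share the description drug-responsive, read here only from drug and DMSO libraries that did not overlap when scaled within the line. On that measure it applied to ZNNT1 and LINC00899 with both drugs in both lines. It applied to NEAT1 with amiloride in KMS12-BM only, and to MALAT1 in no comparison. From 52.0 to 71.7% of all genes tested, depending on the comparison, also did not overlap, and nothing further is read from the measure.

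RNA from KMS12-BM and JJN3, both established lines of malignant plasma cells, was sequenced after 24 h with amiloride, with TG003, or without drug (labelled untreated, DMSO), in 3 libraries per group and 18 in all. Amiloride, a potassium-sparing diuretic that blocks sodium channels and the sodium-proton exchanger, was used at 0.1 mM on KMS12-BM and, at a higher dose, 0.4 mM on JJN3. TG003, an inhibitor of the CDC-like kinases that phosphorylate splicing factors, was used at 0.4 mM on both lines. Nothing in the labels tells if replicate libraries were grown as separate cultures, and p-values therefore measure a spread between libraries that may be technical.

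Long noncoding RNAs are transcripts that are not translated into a known protein. Many, though not all, are spliced and processed much as messenger RNAs are. NEAT1 is the architectural RNA of paraspeckles, nuclear bodies that hold RNA-binding proteins of the DBHS family, and MALAT1 accumulates in nuclear speckles, where splicing factors are stored. The long NEAT1 isoform and MALAT1 carry no ordinary poly(A) tail: RNase P cleaves their 3′ ends, and a triple helix formed by U-rich and A-rich stretches protects what remains. ZNNT1, named as a transcript neighbouring ZNF706, has been linked to autophagy in uveal melanoma cells, and LINC00899 has been linked to the control of TPPP and of mitotic spindles in HeLa cells.

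In GRCh37, the build of the files (hg19), NEAT1 spans chr11:65190245-65213011 and MALAT1 spans chr11:65265111-65275544, both on the plus strand. LINC00899 lies at chr22:46435787-46440733 on the minus strand. After the annotated transcripts of each gene were merged, every one of the 4 genes was a single unbroken exonic block. These blocks were 22767 bases long for NEAT1, 10434 for MALAT1, 4947 for LINC00899 and 2825 for ZNNT1. A gene of the opposite strand, ENSG00000270117, overlaps MALAT1 and has its own row of counts. A longer gene of the opposite strand, TALAM1 at chr11:65266783-65274903, lies within MALAT1 and has no row of counts. Whether counting used the strand is not given in the sources used here. Reads from MALAT1 and these antisense genes therefore cannot be told apart with certainty.

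The 3′ ends of NEAT1 and MALAT1 are shown because the libraries were made from poly(A)-selected RNA, and these ends are encoded in the genome instead of being added as a tail. Each is read from the GRCh37 genome on the plus strand, 5′ to 3′, and ends with the A-rich tract. Capitals mark the A-rich tract and the pair of T-rich stretches upstream of it.
NEAT1, chr11:65212916-65213011: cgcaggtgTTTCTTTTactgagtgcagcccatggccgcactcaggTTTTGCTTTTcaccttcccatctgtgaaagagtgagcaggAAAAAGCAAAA
MALAT1, chr11:65273484-65273587: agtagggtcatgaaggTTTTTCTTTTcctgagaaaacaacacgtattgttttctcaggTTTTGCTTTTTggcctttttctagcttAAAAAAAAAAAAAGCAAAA
Both ends have the same layout, with a T-rich stretch of 8 bases in NEAT1 and 10 in MALAT1, a later one of 10 bases in NEAT1 and 11 in MALAT1, and an A-rich tract of 11 bases in NEAT1 and 19 in MALAT1. The tract is the last part of the annotated NEAT1 gene, whereas the annotated MALAT1 gene runs on for 1957 bases beyond it.

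LINC00899 is shown with its promoter, since its libraries with either drug lay above those with DMSO in both lines, as described further on. The window runs from 250 bases before to 50 after the start site in RefSeq's GRCh38.p14 table, chr22:46044819-46045118 on the minus strand, and capitals mark the GC box GGGCGG or its reverse complement.
LINC00899 promoter: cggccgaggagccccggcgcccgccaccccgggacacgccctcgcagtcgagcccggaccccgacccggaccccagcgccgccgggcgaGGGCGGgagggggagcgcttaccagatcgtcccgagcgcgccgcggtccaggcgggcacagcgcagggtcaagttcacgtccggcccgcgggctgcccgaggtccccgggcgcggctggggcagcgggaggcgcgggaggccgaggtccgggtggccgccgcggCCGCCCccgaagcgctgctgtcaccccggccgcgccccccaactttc
This window had a GC content of 81%, against a median of 58.7% over the 35116 windows in the table. The motifs searched on both strands were the TATA box (TATAAA), the CAAT box (CCAAT), the GC box (GGGCGG), the E-box (CACGTG), the cyclic AMP response element (TGACGTCA), the ATF4-type element (TGATGCAA) and a heat shock half-pair (TTCNNGAA), none of which contains another. The window held the GC box 2 times, as 45.0% of all windows do at least 1 time, and none of the others. MALAT1 had 2 windows in the table: one with 5 matches to the GC box and no other match, and one with a single TATA box, which begins 30 bases before the start site and occurs in 11.5% of all windows. Of the 4 genes, LINC00899 and MALAT1 were matched here, and no promoter is shown for the others.

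Each library held between 23707695 and 50570234 reads in genes. The 6 TG003 libraries stood apart from the other 12: processed pseudogenes took 0.106 to 0.130% of their gene reads, against 4.50 to 5.63% in the amiloride and DMSO libraries, and 7.79 to 9.13% of their alignments were set aside as not unique, against 13.3 to 17.4%. In every comparison of TG003 with DMSO, an effect of the drug and this difference between libraries cannot be told apart. With amiloride, mitochondrial genes took 0.265 to 0.448% of gene reads in KMS12-BM, against 3.86 to 4.25% with DMSO, and 0.709 to 1.03% in JJN3, against 2.06 to 2.61% with DMSO. Levels are given as CPM, counts of a gene per megaread of the library. They are without TMM scaling for the markers here, and after it elsewhere unless stated. All 8 plasma cell markers examined had reads in every library, but some were low. SLAMF7 went down to 0.033 CPM and SDC1 to 2.49 CPM in KMS12-BM, and CD38 to 2.03 CPM in JJN3. Of 8 markers of other cells, CD3E, CD14 and EPCAM also had reads in every library, so having reads does not mark a cell type. CD3E and CD14 reached at most 2.32 and 1.87 CPM. EPCAM, an epithelial adhesion molecule, was at 102 to 200.1 CPM in KMS12-BM, and HBB, a globin gene, was at 21.1 to 65.0 CPM in JJN3. MPO, a myeloid marker, had no read in any library.

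ZNNT1, at chr8:102179033-102181857 on the minus strand in GRCh37, was nearly silent in untreated KMS12-BM and had one of the largest fitted rises with amiloride there. Scaled within the line, it was at 39.0, 50.3 and 68.7 CPM in the amiloride libraries, 2.68, 4.44 and 2.45 CPM in the TG003 libraries, and 0.451, 0.732 and 0.935 CPM in the DMSO libraries. The 3 groups did not overlap, and the DMSO values rested on 13, 29 and 46 reads. The fitted log2 fold change was 6.15 ± 0.33 (SE) for amiloride, a ratio of 71.1, and 2.09 ± 0.36 for TG003, a ratio of 4.27. Of the 15765 genes tested in KMS12-BM, 12 had a larger fitted rise with amiloride, as had 1 of the 1583 long noncoding RNAs among them. ZNNT1 was chosen by such fold changes, so nothing is read from its place among the rises. In the ranking by CPM of the 2018 long noncoding RNAs measured across both lines, ZNNT1 stood 30th in amiloride-treated KMS12-BM and 867th in untreated KMS12-BM.

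In JJN3, ZNNT1 started from a higher level and the ratio was smaller. It was at 14.4, 12.2 and 18.5 CPM with amiloride, 4.70, 6.07 and 6.90 CPM with TG003, and 3.17, 4.41 and 4.58 CPM with DMSO. Amiloride libraries lay clear of the rest, while the lowest TG003 library was just above the highest DMSO library. On the scale common to all 18 libraries those 2 were level, at 4.69 CPM each. The fitted log2 fold change was 1.89 ± 0.19 for amiloride and 0.54 ± 0.20 for TG003. The TG003 value lay between 0.40 and 0.68 when single libraries were left out. KMS12-BM minus JJN3, the log2 responses differed by 4.25 ± 0.41 for amiloride and 1.57 ± 0.44 for TG003, and these differences were not tested. KMS12-BM received a lower amiloride dose (0.1 mM) than JJN3 did (0.4 mM), so line and dose cannot be told apart for amiloride.

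**Figure D1:**
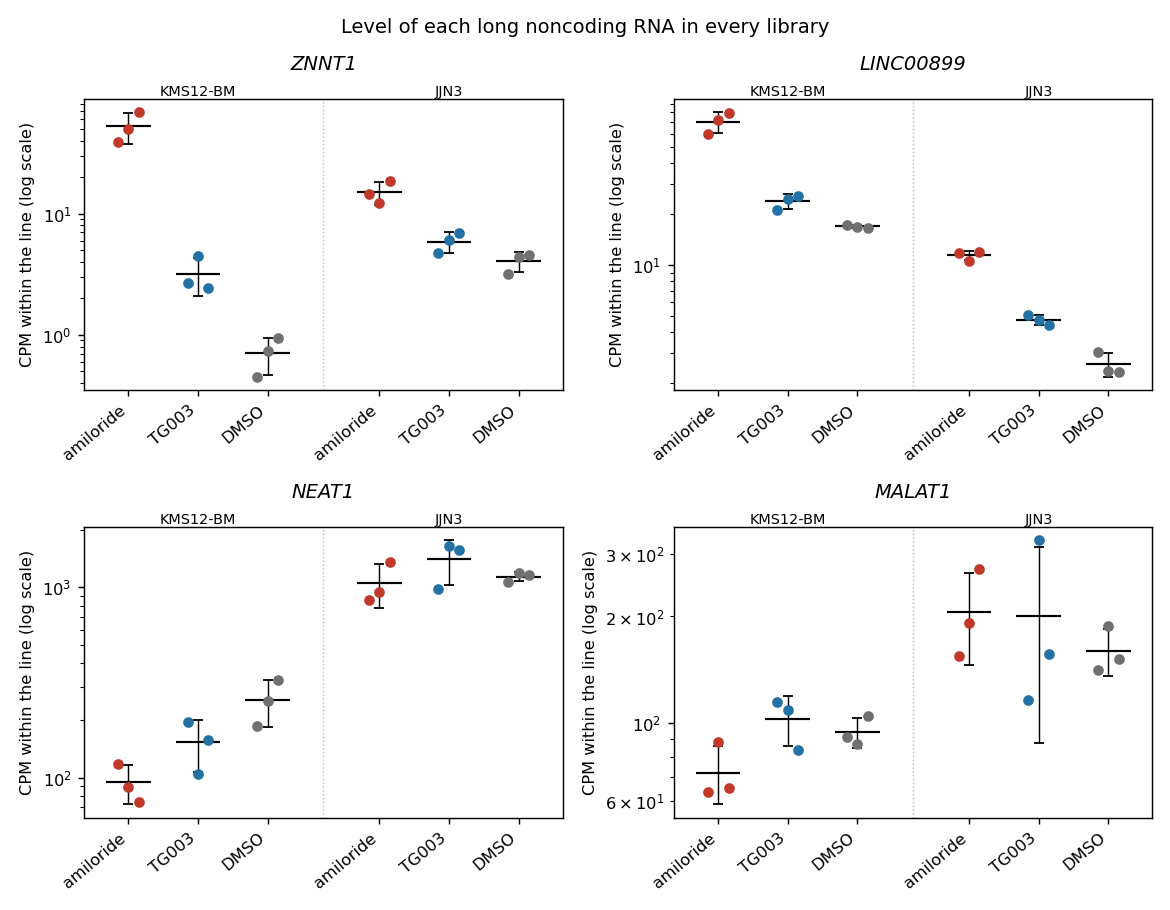
CPM of each gene in each library on a log axis, scaled within each line, with KMS12-BM left of the dotted line and JJN3 right of it. Points are libraries, bars are group means and whiskers are ± SD (n = 3). ZNNT1 and LINC00899 libraries treated with amiloride lie above all others of their line, and the MALAT1 groups overlap throughout.

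LINC00899 kept the same order of groups in both lines, amiloride above TG003 above DMSO. In KMS12-BM it was at 59.7, 72.6 and 78.9 CPM with amiloride, 21.2, 24.5 and 25.8 CPM with TG003, and 17.3, 16.9 and 16.5 CPM with DMSO. In JJN3 it was at 11.7, 10.6 and 11.9 CPM with amiloride, 5.07, 4.70 and 4.43 CPM with TG003, and 3.06, 2.37 and 2.33 CPM with DMSO. No 2 groups of a line overlapped, although the lines differed in level. The log2 fold change for amiloride was 2.06 ± 0.12 in KMS12-BM and 2.14 ± 0.13 in JJN3, a difference of -0.09 ± 0.17. For TG003 it was 0.49 ± 0.11 in KMS12-BM and 0.87 ± 0.14 in JJN3, a difference of -0.35 ± 0.18. In JJN3, 71 of 15704 genes had a larger fitted rise with amiloride than LINC00899 and 104 a larger one than ZNNT1. In KMS12-BM, 487 of 15765 genes had a larger one than LINC00899. Both genes were chosen by such fold changes, so nothing is read from these places.

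NEAT1 was lower on average in drug-treated KMS12-BM, and in JJN3 the drug groups did not separate from DMSO. In KMS12-BM it was at 118, 89.9 and 75.0 CPM with amiloride, 197, 105 and 158 CPM with TG003, and 187, 252 and 328 CPM with DMSO. Amiloride libraries lay below the DMSO libraries, whereas the highest TG003 library was above the lowest DMSO library. In JJN3 it was at 853, 940 and 1357 CPM with amiloride, 975, 1650 and 1575 CPM with TG003, and 1065, 1185 and 1155 CPM with DMSO. Both drug groups spread to either side of the DMSO libraries there. The log2 fold change for amiloride was -1.44 ± 0.27 in KMS12-BM and -0.11 ± 0.22 in JJN3, and for TG003 it was -0.74 ± 0.27 in KMS12-BM and 0.30 ± 0.22 in JJN3. The amiloride value in JJN3 lay between -0.34 and 0.02 when single libraries were left out, -0.34 being the value without amiloride replicate 3 and 0.02 that without amiloride replicate 1. The TG003 value in JJN3 was 0.17 without TG003 replicate 2 and 0.51 without TG003 replicate 1.

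MALAT1 libraries overlapped between drug and DMSO in all 4 comparisons. In KMS12-BM it was at 63.5, 87.9 and 65.3 CPM with amiloride, 115, 109 and 83.8 CPM with TG003, and 90.8, 86.9 and 105 CPM with DMSO. In JJN3 it was at 154, 192 and 272 CPM with amiloride, 116, 329 and 157 CPM with TG003, and 141, 188 and 152 CPM with DMSO. A single JJN3 library, TG003 replicate 2, was far above the rest of its group. The log2 fold change for amiloride was -0.38 ± 0.15 in KMS12-BM and 0.36 ± 0.41 in JJN3. For TG003 it was 0.12 ± 0.15 in KMS12-BM and 0.33 ± 0.41 in JJN3, and the JJN3 value became -0.23 without replicate 2 of TG003 and 0.61 without replicate 1. The amiloride value in JJN3 became 0.11 without amiloride replicate 3, and the TG003 value in KMS12-BM lay between 0.03 and 0.25 with single libraries left out.

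Counted over the 4 genes, drug and DMSO libraries did not overlap for 3 with amiloride in KMS12-BM, where this was so for 71.7% of all genes tested. They did not overlap for 2 of the 4 with TG003 in KMS12-BM, against 68.7% of all genes. The count was 2 of 4 with amiloride in JJN3, against 52.0% of all genes, and 2 of 4 with TG003 in JJN3, against 66.4% of all genes. On the scale common to 18 libraries, ZNNT1 with TG003 overlapped DMSO in JJN3, so the last count depends on the scaling. Because the genes were chosen on these contrasts, nothing is read from the counts. Leaving mitochondrial genes and pseudogenes out of the tables moved the amiloride values in KMS12-BM to 6.14 for ZNNT1, 2.05 for LINC00899, -1.45 for NEAT1 and -0.39 for MALAT1.

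**Figure D2:**
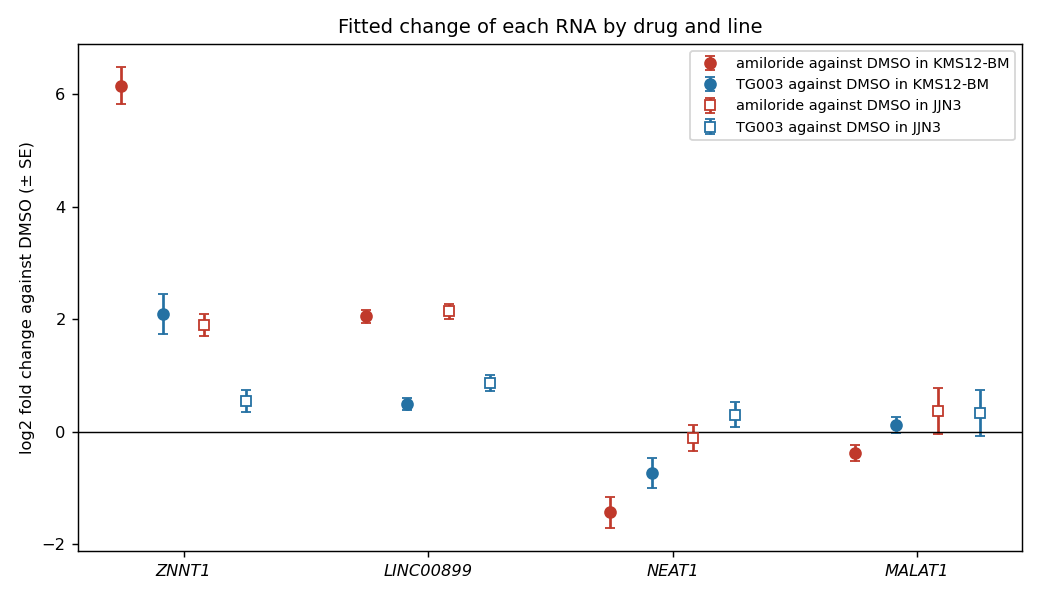
Fitted log2 fold change against DMSO (± SE) of each gene, with amiloride in red, TG003 in blue, KMS12-BM as filled circles and JJN3 as open squares. ZNNT1 in KMS12-BM with amiloride, at 6.15, is far above the others, the amiloride values of LINC00899 in both lines are 2.06 and 2.14, and all MALAT1 values lie between -0.38 and 0.36.

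The untreated lines were compared with a test. The genes were not chosen on this contrast, but its 6 DMSO libraries are also those against which the drugs were compared in choosing them, so its p-values are not independent of the choice. On the scale common to 18 libraries, DMSO-treated KMS12-BM had less ZNNT1, NEAT1 and MALAT1 and more LINC00899 than DMSO-treated JJN3. All 4 genes passed edgeR's quasi-likelihood test after Benjamini-Hochberg adjustment, as did 76.0% of the 17772 genes tested, and all 4 had libraries that did not overlap between lines, as did 78.5% of genes. A share of that size is therefore common between these lines.

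ZNNT1 was at 0.440, 0.719 and 0.924 CPM in KMS12-BM and 3.22, 4.57 and 4.69 CPM in JJN3. The log2 difference, KMS12-BM minus JJN3, was -2.52 ± 0.34 (edgeR's quasi-likelihood test, adjusted p = 3.72e-06). LINC00899 differed in the other direction, with 16.9, 16.6 and 16.3 CPM in KMS12-BM and 3.11, 2.45 and 2.39 CPM in JJN3, a log2 difference of 2.65 ± 0.13 (adjusted p = 1.20e-13). NEAT1 was at 183, 247 and 324 CPM in KMS12-BM and 1084, 1226 and 1182 CPM in JJN3, a log2 difference of -2.21 ± 0.29 (adjusted p = 8.85e-06). MALAT1 was at 88.6, 85.4 and 103 CPM in KMS12-BM and 143, 194 and 155 CPM in JJN3, a log2 difference of -0.83 ± 0.33 (adjusted p = 0.0329). This last result was not past 0.05 when KMS12-BM replicate 1 or 2 or JJN3 replicate 2 or 3 of DMSO was left out, with adjusted p from 0.0519 to 0.106.

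Ordered over all 6 groups on the common scale, ZNNT1 had means of 51.8 CPM in KMS12-BM with amiloride, 15.5 in JJN3 with amiloride, 5.92 in JJN3 with TG003, 4.16 in JJN3 with DMSO, 3.12 in KMS12-BM with TG003 and 0.694 in KMS12-BM with DMSO. JJN3 with TG003 overlapped JJN3 with DMSO, which overlapped KMS12-BM with TG003. LINC00899 had means of 69.1, 23.3 and 16.6 CPM in KMS12-BM with amiloride, TG003 and DMSO, and of 11.7, 4.75 and 2.65 CPM in JJN3 with amiloride, TG003 and DMSO. No neighbours in this order overlapped, and every KMS12-BM group was above every JJN3 group. For NEAT1 the JJN3 groups, at 1407, 1164 and 1081 CPM with TG003, DMSO and amiloride, overlapped each other and were clear of the KMS12-BM groups, at 251, 150 and 92.6 CPM with DMSO, TG003 and amiloride. MALAT1 showed the same division, with JJN3 at 212, 202 and 164 CPM (amiloride, TG003, DMSO) and KMS12-BM at 100.2, 92.4 and 70.9 CPM (TG003, DMSO, amiloride).

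The genes differ in length, so levels of different genes were set side by side as CPM per kilobase of merged exons. NEAT1 was divided by all 22767 bases, although its long isoform has no ordinary poly(A) tail and the libraries were poly(A)-selected, so its place in the order depends on that length. In amiloride-treated KMS12-BM, ZNNT1 was at 18.3 ± 5.24 CPM per kb (SD, n = 3), LINC00899 at 14.0 ± 1.97, MALAT1 at 6.80 ± 1.29 and NEAT1 at 4.07 ± 0.939. In untreated KMS12-BM the order by mean was different, with NEAT1 at 11.03 ± 3.10 CPM per kb, MALAT1 at 8.86 ± 0.913, LINC00899 at 3.36 ± 0.0602 and ZNNT1 at 0.246 ± 0.0860. In untreated JJN3, NEAT1 was at 51.1 ± 3.20 CPM per kb, MALAT1 at 15.7 ± 2.55, ZNNT1 at 1.47 ± 0.288 and LINC00899 at 0.536 ± 0.0812. NEAT1 took 1.08% of all long noncoding RNA reads in KMS12-BM with amiloride, 1.52% with TG003 and 2.74% with DMSO. In JJN3 its share was 11.5% with amiloride, 13.4% with TG003 and 12.1% with DMSO, the most of any long noncoding RNA in each of these groups.

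The ratio of NEAT1 to MALAT1 reads within a library does not depend on scaling between libraries. In KMS12-BM there were 1.86, 1.02 and 1.15 NEAT1 reads per MALAT1 read with amiloride, 1.72, 0.964 and 1.89 with TG003, and 2.06, 2.89 and 3.13 with DMSO. Both drug groups thus lay below the DMSO libraries. In JJN3 the ratios were 5.52, 4.90 and 4.99 with amiloride, 8.40, 5.01 and 10.0 with TG003, and 7.56, 6.31 and 7.61 with DMSO. There the amiloride libraries lay below the DMSO libraries and the TG003 libraries spread to either side. The DMSO libraries of KMS12-BM, with a mean ratio of 2.70 ± 0.564, lay below those of JJN3, with 7.16 ± 0.736 (SD, n = 3 each).

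**Figure D3:**
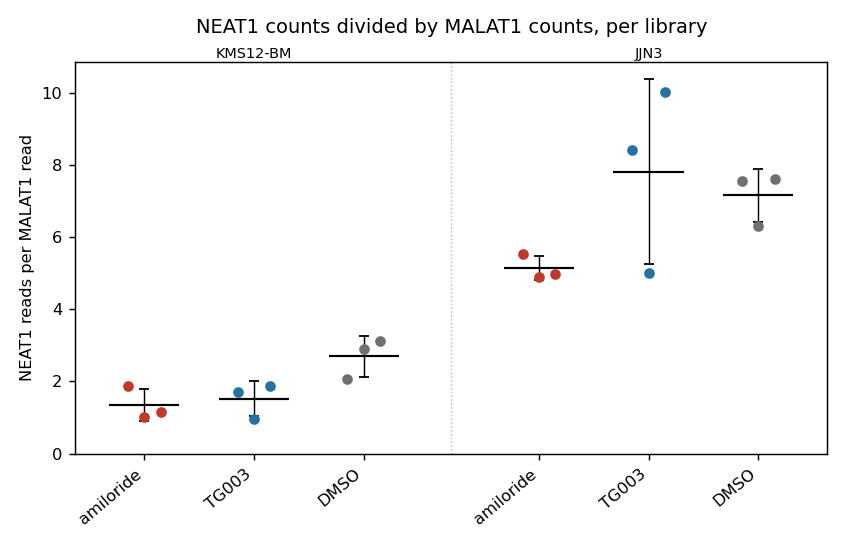
NEAT1 counts divided by MALAT1 counts in each library, with KMS12-BM left and JJN3 right of the dotted line. Bars are means and whiskers ± SD (n = 3). Amiloride libraries lie below the DMSO libraries of their line in both lines.

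Genes around each of the 4 were described to show whether the RNA differed alone or with its surroundings. Within 200 kb of ZNNT1, 3 genes with a symbol could be tested in KMS12-BM and 2 in JJN3. With amiloride, 2 fell and 1 did not pass in KMS12-BM, and 1 fell and 1 did not pass in JJN3. With TG003, 1 rose and 2 fell in KMS12-BM, and 1 rose and 1 did not pass in JJN3. Of all genes tested, 33.5% rose and 35.2% fell with amiloride in KMS12-BM, and 19.7% rose and 23.9% fell in JJN3. The shares with TG003 were 26.9% and 31.7% in KMS12-BM, and 26.2% and 32.1% in JJN3. ZNF706, a zinc finger gene 8.25 kb from ZNNT1, went the other way under amiloride. It averaged 117 ± 13.9 CPM with amiloride and 139 ± 1.81 CPM with DMSO in KMS12-BM, a log2 change of -0.25 ± 0.09 (edgeR's quasi-likelihood test, adjusted p = 0.025), which did not pass without DMSO replicate 2 or 3 or amiloride replicate 3 (adjusted p from 0.0573 to 0.0846), or in a fit to the 6 libraries compared (0.0648). In JJN3 it averaged 61.0 ± 4.85 CPM with amiloride and 102 ± 0.616 CPM with DMSO, a log2 change of -0.74 ± 0.09 (adjusted p = 3.28e-05). With TG003, ZNF706 rose by 0.55 ± 0.09 on the log2 scale in KMS12-BM (adjusted p = 0.000229) and by 0.42 ± 0.09 in JJN3 (adjusted p = 0.000912). LINC03044, a long noncoding RNA 40.6 kb away, averaged under 1 CPM in every group. It averaged 0.0365 ± 0.0147 CPM with amiloride and 0.426 ± 0.156 CPM with DMSO in KMS12-BM, a log2 change of -3.45 ± 0.49 (adjusted p = 6.78e-05). With TG003 in KMS12-BM its log2 change was -1.34 ± 0.37 (adjusted p = 0.00867), which did not pass without DMSO replicate 2 (0.053) or in DESeq2 (0.0694). NACA4P, a pseudogene 192 kb away that also averaged under 1 CPM, had a log2 change of -2.65 ± 0.84 with TG003 in KMS12-BM (adjusted p = 0.0179), which did not pass without DMSO replicate 2 (0.0675) or TG003 replicate 2 (0.0565). The TG003 libraries held few pseudogene reads, as given above.

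Around LINC00899, 6 genes could be tested, and neither drug moved them all one way. The counts stand beside the shares of all genes given above with the neighbours of ZNNT1. With amiloride in KMS12-BM, 2 rose, 2 fell and 2 did not pass, and with TG003 there 2 rose, 3 fell and 1 did not pass. With a replicate block, a term in the fit for the 3 sets of library numbers, ATXN10 also rose with amiloride in KMS12-BM (log2 0.17, adjusted p = 0.047). In JJN3, 2 rose, 1 fell and 3 did not pass with amiloride, and 1 rose, 1 fell and 4 did not pass with TG003. PRR34-AS1 was 1 of the 2 that rose with amiloride in JJN3 (adjusted p = 0.0223), and it did not pass without DMSO replicate 2 or 3 or amiloride replicate 2 or 3 (0.0546 to 0.0888). The count of rises there was 1 without DMSO replicate 3 or amiloride replicate 2 or 3. With TG003 in KMS12-BM the rise of PRR34-AS1 did not pass without DMSO replicate 2 (0.05001) or 3 (0.067), which left 1 rise, and with TG003 in JJN3 the count of rises was 2 without DMSO replicate 2. PPARA, which encodes a fatty acid-sensing nuclear receptor and lies 106 kb away, averaged 72.5 ± 4.95 CPM with amiloride and 35.8 ± 1.5 CPM with DMSO in KMS12-BM, a log2 change of 1.02 ± 0.08 (edgeR, adjusted p = 7.88e-07). It rose by 0.43 ± 0.10 with amiloride in JJN3 (adjusted p = 0.00481) and fell by 0.38 ± 0.08 with TG003 in KMS12-BM (adjusted p = 0.00191) and by 0.45 ± 0.10 with TG003 in JJN3 (adjusted p = 0.00254). PRR34, the nearest tested gene at 4.63 kb, fell with amiloride in KMS12-BM, to 0.656 ± 0.0922 CPM against 2.34 ± 0.124 CPM with DMSO, a log2 change of -1.83 ± 0.22 (adjusted p = 1.44e-05). MIRLET7BHG, the host transcript of let-7 microRNAs 9.02 kb away, rose by 1.77 ± 0.28 in the same comparison (adjusted p = 0.000151). Between untreated lines, 5 of the 6 were higher in KMS12-BM, as LINC00899 was, and 1 did not pass. Of all genes tested there, 36.8% were higher in KMS12-BM and 39.3% lower. Of the 5, MIRLET7BHG (adjusted p = 0.0448) did not pass without KMS12-BM replicate 1 or 3 or JJN3 replicate 1 or 3 of DMSO (0.0715 to 0.156).

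NEAT1 and MALAT1 differed from nearly all of their neighbours between the untreated lines. Of 19 genes tested within 200 kb of either one, 17 were higher in DMSO-treated KMS12-BM than in DMSO-treated JJN3, 1 was lower and 1 did not pass, while NEAT1 and MALAT1 were both lower. KCNK7, SLC22A20P and ZNRD2-DT, all among the 17, had enough reads to be tested in KMS12-BM but not in JJN3 alone. The filter on counts thus favoured that direction for them, and nothing is read from their calls. Of all 17772 genes tested, 36.8% were higher in KMS12-BM and 39.3% lower. The lower one was FRMD8, 9.25 kb from NEAT1, with 75.3 ± 7.08 CPM in KMS12-BM and 126 ± 6.51 CPM in JJN3, a log2 difference of -0.74 ± 0.12 (edgeR, adjusted p = 1.02e-05). RELA, which encodes a subunit of NF-kappa B 146 kb from MALAT1, was at 184 ± 11.7 CPM in KMS12-BM and 127 ± 11.7 CPM in JJN3, a log2 difference of 0.53 ± 0.09 (adjusted p = 1.84e-05).

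With amiloride in KMS12-BM, 12 of these 19 genes fell, 2 rose and 5 did not pass, beside 35.2% of all 15765 genes that fell and 33.5% that rose. In that comparison all genes had a median log2 change of 0.36 in the fifth of lowest transcript GC content and of -0.58 in the fifth of highest. The part of GC content in the neighbours' values was not tested. The 2 rises became 1 without DMSO replicate 2 or 3. With the replicate block 2 more rose, DPF2 by 0.24 (adjusted p = 0.0208) and PCNX3 by 0.17 (adjusted p = 0.0265). SIPA1, a GTPase-activating protein gene, averaged 4.04 ± 1.19 CPM with amiloride and 35.1 ± 9.47 CPM with DMSO, a log2 change of -3.10 ± 0.23 (edgeR, adjusted p = 9.96e-07). POLA2, which encodes a subunit of DNA polymerase alpha, averaged 10.3 ± 2.78 CPM with amiloride and 108 ± 13.5 CPM with DMSO, a log2 change of -3.37 ± 0.17 (adjusted p = 6.97e-08). FRMD8 fell by 1.51 ± 0.15 (adjusted p = 4.80e-06), close in size to the NEAT1 value. Of the 16 tested in JJN3, 6 rose, 3 fell and 7 did not pass with amiloride, and 5 rose, 5 fell and 6 did not pass with TG003. The 6 rises with amiloride became 2 without amiloride replicate 1. The 5 falls with TG003 became 2 without DMSO replicate 2 or TG003 replicate 2, and 3 without any other 1 of the 6 libraries compared. In KMS12-BM with TG003, 1 rose, 1 fell and 17 did not pass, and with the replicate block FAUP4 also rose by 0.39 (adjusted p = 0.0339) and LTBP3 fell by 0.47 (adjusted p = 0.00116). Without the block, neither the 1 rise nor the 1 fall passed when DMSO replicate 2 was left out.

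**Figure D4:**
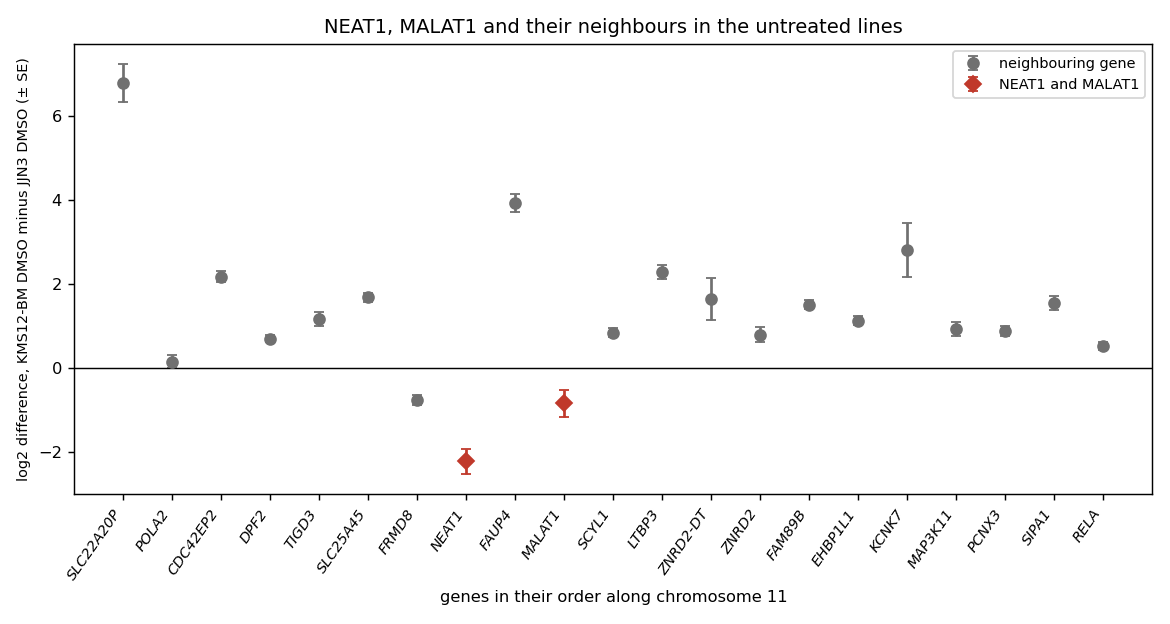
Log2 difference (± SE), DMSO-treated KMS12-BM minus DMSO-treated JJN3, for NEAT1 and MALAT1 (red diamonds) and the 19 tested neighbours (grey circles) in their order along chromosome 11. NEAT1, MALAT1 and FRMD8 lie below 0 and the others above it, POLA2 without passing the test.

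Genes that make, bind or degrade such RNAs were examined as lists. Over all genes tested, 68.7% passed the adjusted p of 0.05 with amiloride in KMS12-BM, 58.6% with TG003 in KMS12-BM, 43.6% with amiloride in JJN3 and 58.3% with TG003 in JJN3, and the lists are read against these shares. Long noncoding RNAs as a class had a median log2 change of -0.21 with amiloride in KMS12-BM, where 418 of 1583 rose and 574 fell. With TG003 the class had a median of 0.32 in KMS12-BM, with 586 rising and 215 falling, and of 0.18 in JJN3, with 427 of 1456 rising and 226 falling. With amiloride in JJN3 the median was 0.01, with 265 rising and 247 falling.

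The nuclear exosome degrades many nuclear noncoding RNAs from the 3′ end, guided by adaptor complexes. With amiloride, 14 of the 22 exosome and adaptor genes tested rose and 2 fell in JJN3, and 12 rose and 5 fell in KMS12-BM. The list's median log2 change was 0.29 in JJN3 and 0.34 in KMS12-BM, beside -0.03 and -0.02 over all genes. The 2 lower calls in JJN3 became 0 without DMSO replicate 3 or amiloride replicate 1, and 1 without DMSO replicate 2 or amiloride replicate 2 or 3. In JJN3, DIS3, a catalytic ribonuclease of the complex, averaged 96.4 ± 3.51 CPM with amiloride and 60.3 ± 2.09 CPM with DMSO, a log2 change of 0.68 ± 0.07 (edgeR, adjusted p = 1.14e-05). In KMS12-BM, ZFC3H1, which links the exosome to polyadenylated nuclear RNA, averaged 95.6 ± 5.33 CPM with amiloride and 32.2 ± 6.97 CPM with DMSO, a log2 change of 1.57 ± 0.13 (adjusted p = 1.38e-06). There MPHOSPH6, an exosome cofactor, fell by 2.50 ± 0.21 (adjusted p = 1.47e-06). With TG003, 11 rose, none fell and 11 did not pass in JJN3, and 5 rose, 3 fell and 14 did not pass in KMS12-BM, where 5 fell with the replicate block or without DMSO replicate 3. EXOSC10, a nuclear exosome ribonuclease, averaged 185 ± 11.9 CPM with TG003 and 112 ± 8.54 CPM with DMSO in JJN3, a log2 change of 0.72 ± 0.08 (adjusted p = 4.47e-06).

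RNase P, RNase Z and triple helix-binding proteins shape the 3′ ends of MALAT1 and long NEAT1. With amiloride, 6 of the 15 genes rose, 8 fell and 1 did not pass in KMS12-BM, and 6 rose, 1 fell and 8 did not pass in JJN3. The 6 in JJN3 became 2 without DMSO replicate 2 or 3 or amiloride replicate 1, and 3 without amiloride replicate 2. METTL16, a methyltransferase that binds the MALAT1 triple helix, averaged 104 ± 11.4 CPM with amiloride and 61.9 ± 2.25 CPM with DMSO in KMS12-BM, a log2 change of 0.74 ± 0.09 (edgeR, adjusted p = 1.77e-05). It averaged 156 ± 3.63 CPM with amiloride and 109 ± 2.81 CPM with DMSO in JJN3, a log2 change of 0.51 ± 0.06 (adjusted p = 4.53e-05). POP1, a core RNase P protein, averaged 23.8 ± 1.79 CPM with amiloride and 69.0 ± 5.31 CPM with DMSO in KMS12-BM, a log2 change of -1.53 ± 0.09 (adjusted p = 7.97e-08). With TG003, 2 rose, 4 fell and 9 did not pass in KMS12-BM, and 8 rose, 1 fell and 6 did not pass in JJN3. The 2 rises in KMS12-BM became 4 without DMSO replicate 2 or in a fit to the 6 libraries compared, and 5 with upper-quartile scaling, and the 1 fall in JJN3 became 2 with the replicate block. RPP30, another RNase P subunit, rose in both, by 1.25 ± 0.27 in KMS12-BM (adjusted p = 0.00265) and by 1.15 ± 0.15 in JJN3 (adjusted p = 3.30e-05).

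**Figure D5:**
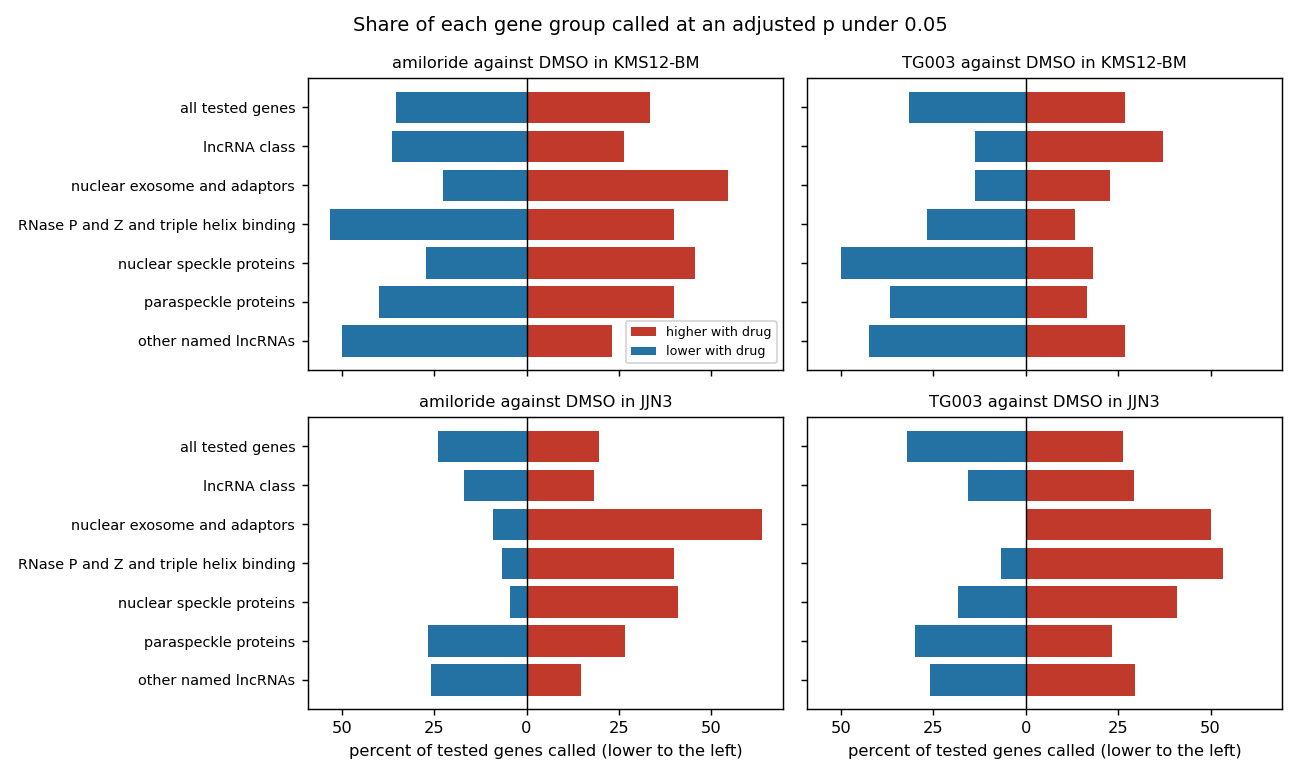
Percent of tested genes in each group that passed an adjusted p of 0.05, with those higher in the drug group to the right and those lower to the left, in the 4 drug comparisons. With amiloride in JJN3, 63.6% of exosome and adaptor genes were higher and 9.09% lower, beside 19.7% and 23.9% of all tested genes.

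Of 30 paraspeckle protein genes tested, 12 rose and 12 fell with amiloride in KMS12-BM, and 8 rose and 8 fell with amiloride in JJN3, where 5 fell without replicate 1 or 2 of either group. With TG003, 5 rose and 11 fell in KMS12-BM, and 7 rose and 9 fell in JJN3. The 3 DBHS proteins, named here for their role after their values were seen, did not move together. In KMS12-BM with amiloride, SFPQ rose by 0.43 ± 0.08 on the log2 scale (adjusted p = 0.000374) and PSPC1 by 1.10 ± 0.12 (adjusted p = 7.26e-06), and NONO fell by 0.30 ± 0.08 (adjusted p = 0.00426). SMARCA4, a chromatin remodelling ATPase, fell with amiloride in both lines, by 1.59 ± 0.09 in KMS12-BM (adjusted p = 7.27e-08) and by 0.46 ± 0.07 in JJN3 (adjusted p = 0.000252). RBM3, a cold-inducible RNA-binding protein gene, fell with TG003 in both, by 1.72 ± 0.11 in KMS12-BM (adjusted p = 9.88e-08) and by 0.69 ± 0.10 in JJN3 (adjusted p = 5.07e-05). HNRNPA1 showed the smallest adjusted p among the rises with TG003 in this list, at 1561 ± 144 CPM with TG003 and 282 ± 15.4 CPM with DMSO in KMS12-BM, but its value is uncertain. Without TMM scaling, its 74 pseudogene copies together held 29.2 CPM with TG003 and 436 CPM with DMSO in that line. HNRNPA1 itself held 1608 and 272 CPM on that measure, and the part of the copies in its value was not tested.

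Of 22 nuclear speckle protein genes, 10 rose and 6 fell with amiloride in KMS12-BM and 9 rose and 1 fell in JJN3. With TG003, 4 rose and 11 fell in KMS12-BM, whereas 9 rose and 4 fell in JJN3, where 2 fell without replicate 1 or 2 of either group. THRAP3 and SRSF4, which encode splicing factors, fell with TG003 in both lines. THRAP3 fell by 1.04 ± 0.11 on the log2 scale in KMS12-BM (edgeR, adjusted p = 9.71e-06) and by 0.50 ± 0.08 in JJN3 (adjusted p = 8.72e-05). SRSF4 fell by 0.71 ± 0.08 in KMS12-BM (adjusted p = 1.39e-05) and by 0.69 ± 0.07 in JJN3 (adjusted p = 1.94e-06). BCLAF1, a partner of THRAP3, fell by 1.53 ± 0.10 with amiloride in KMS12-BM (adjusted p = 2.50e-07).

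Other well-known long noncoding RNAs moved in both directions. With amiloride, 6 of the 26 tested in KMS12-BM rose and 13 fell, and 4 of the 27 tested in JJN3 rose and 7 fell. With TG003, 7 rose and 11 fell in KMS12-BM, and 8 rose and 7 fell in JJN3. Of all long noncoding RNAs tested, 26.4% rose and 36.3% fell with amiloride in KMS12-BM, and 18.2% rose and 17% fell in JJN3. The shares with TG003 were 37% and 13.6% in KMS12-BM, and 29.3% and 15.5% in JJN3. DANCR, first described as an inhibitor of differentiation, averaged 6.87 ± 1.91 CPM with amiloride and 41.4 ± 1.47 CPM with DMSO in KMS12-BM, a log2 change of -2.58 ± 0.15 (edgeR, adjusted p = 1.13e-07), and fell by 0.67 ± 0.09 in JJN3 (adjusted p = 7.06e-05). THAP9-AS1 averaged 56.6 ± 5.03 CPM with amiloride and 21.4 ± 1.60 CPM with DMSO in KMS12-BM, a log2 change of 1.40 ± 0.13 (adjusted p = 2.08e-06). It also rose with TG003, by 0.72 ± 0.13 in KMS12-BM (adjusted p = 0.00051) and by 0.45 ± 0.09 in JJN3 (adjusted p = 0.00114). TUG1 fell with TG003 in KMS12-BM, to 142 ± 26.6 CPM against 267 ± 2.41 CPM with DMSO, a log2 change of -0.91 ± 0.11 (adjusted p = 3.59e-05).

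The genes whose pattern was most like each RNA were found by Pearson correlation of log2(CPM + 0.5) over the 18 libraries among 13080 genes, as a description. The libraries share line and treatment, which sets much of any such correlation. Nearest to ZNNT1 were PHF20L1 (r = 0.987), SLC7A6OS (0.980) and MORC3 (0.973). PHF20L1, a chromatin reader gene that is also on chromosome 8, had means of 276, 150.03 and 125 CPM with amiloride, TG003 and DMSO in KMS12-BM, and 220.03, 175 and 166 CPM in JJN3. Its groups stood in the same order within each line as those of ZNNT1, over a much narrower range. Nearest to LINC00899 were LLPH (0.986), ABITRAM (0.985) and QRSL1 (0.985). Their r was 0.951 or more in the 9 libraries of each line alone, but none of them was among the 3 nearest there. None was among the 3 nearest by Spearman rank correlation over the 18 libraries either.

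Nearest to NEAT1 were SLC25A30 (0.988), COX10-DT (0.986) and ERAP1 (0.983). Within KMS12-BM alone their correlations with NEAT1 were 0.929, 0.966 and 0.934, and within JJN3 alone they were 0.614, 0.269 and 0.543. Nearest to MALAT1 were UBXN4 (0.914), GBP4 (0.890) and NOTCH2 (0.890), lower values than for the other 3 genes. Within KMS12-BM alone these were 0.660, 0.157 and 0.559, and within JJN3 alone 0.776, 0.723 and 0.667. GBP4 averaged 0.0564 CPM or less in every KMS12-BM group, so its value over 18 libraries rests on the difference between lines. ZNNT1 and LINC00899 correlated at 0.989 within the 9 KMS12-BM libraries and 0.926 within the 9 JJN3 libraries, but at 0.422 over all 18, where the lines differ in opposite directions. Both genes were chosen by their drug responses, and the libraries of a line fall into treatment groups. A high value within a line therefore restates that choice, and nothing further is read from it. NEAT1 and MALAT1 correlated at 0.863 over all 18 libraries, 0.511 within KMS12-BM and 0.621 within JJN3.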

How the data were processed

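The authors deposited whole-number counts of reads per gene, one file per library. Per the submitters' processing notes, cutadapt 1.4, TopHat2 2.0.11, HTSeq 0.6.1p1 and DESeq2 1.12.4 were used with hg19. No alignment option, strand setting or annotation version is named in the sources used here. Per the series' design text the RNA was poly(A)-selected, whereas the labels give total RNA as the molecule. The deposited normalized tables were not used. HTSeq's lines for unassigned reads (not unique, 7.79 to 17.4% of a library's total) stayed out of library sizes and tests.

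Of 57905 identifiers, 55538 matched the GENCODE annotation lifted to GRCh37 and 43521 had a symbol. Each line's 9 libraries were fitted together with edgeR 4.0.16 (R 4.3.3, limma 3.58.1) by the quasi-likelihood test, with TMM scaling and genes kept by a minimum count of 10 and a total of 15; the lines were compared in a fit to all 18 libraries. Benjamini-Hochberg adjustment ran over all genes tested, with a threshold of 0.05. CPM are TMM-scaled, within the line for drug comparisons and over 18 libraries between lines. Those of the cell markers and of the comparison with pseudogene copies are not scaled. The procedure was tested on simulated data. The 4 genes and all lists were chosen with earlier results of these data known. Named genes were the 4, tested neighbours with a symbol within 200 kb, the 2 called genes with the smallest adjusted p in each direction of each list and drug comparison (mean of at least 5 CPM), and the 3 genes most like each of the 4; not every one is printed. GC content and motifs were computed from RefSeq promoter windows and the genome.

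The library numbers in the labels put the libraries in 3 sets. Deviations of same-set libraries from their group means correlated at above 0.1 for every set in amiloride and TG003 against DMSO in KMS12-BM and in TG003 against DMSO in JJN3 (0.107 to 0.384), which pairs them there, but not with amiloride in JJN3 (0.0341 to 0.117) or between lines. Alternatives were DESeq2 1.42.0, other size factors, no filter, other libraries in the fit, the set as a block, and each library left out.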

Additional observations from a re-analysis of the deposited data

Results flagged for a closer look

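These 4 neighbours of NEAT1 or MALAT1 moved in opposite directions with amiloride in the 2 lines, each with all libraries of a line on one side of DMSO. Of all genes tested, 71.7% did not overlap DMSO with amiloride in KMS12-BM and 52.0% in JJN3. How many of all genes did so in opposite directions was not counted, so these are not read as particular to the neighbours. The difference between the lines was not tested, and the amiloride dose differed between them. On the log2 scale, CDC42EP2 changed by -0.96 in KMS12-BM and 0.60 in JJN3, LTBP3 by -0.71 and 0.41, EHBP1L1 by -2.01 and 0.31, and MAP3K11 by -1.01 and 0.35, KMS12-BM first. In JJN3, LTBP3, EHBP1L1 and MAP3K11 did not pass edgeR's test without amiloride replicate 1 (adjusted p = 0.0901, 0.0561 and 0.0559). LTBP3 and MAP3K11 also did not pass without DMSO replicate 1 (0.074 and 0.0571) or 2 (0.0791 and 0.0596), nor MAP3K11 without amiloride replicate 3 (0.0882). ZCCHC8, an exosome adaptor gene, changed by 1.24 with amiloride in KMS12-BM and by -0.25 in JJN3, where it did not pass without DMSO replicate 3 or amiloride replicate 1 or 2 (0.0591 to 0.111).

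With TG003, ZC3H6 changed by 0.92 in KMS12-BM and -0.81 in JJN3, NCBP1, a cap-binding protein gene, by -0.38 in KMS12-BM and 0.64 in JJN3, and JPX, a long noncoding RNA, by -0.25 in KMS12-BM and 0.48 in JJN3. Neither set of differences was tested.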

How the results depend on the processing

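No call is made for the drug values of the 4 genes. Under other settings, 2 of them changed sign, both in JJN3: MALAT1 with TG003, -0.23 without TG003 replicate 2, and NEAT1 with amiloride, 0.02 without amiloride replicate 1. In the comparison of untreated lines, 48 of 52 values stayed past the threshold. The other 4 were those of MALAT1 with one DMSO library left out, where the log2 difference over the single-library settings ranged from -0.92 to -0.69 and the adjusted p from 0.0399 to 0.106. Other values of the MALAT1 difference ranged from -0.84 to -0.79. With a replicate block for these sets of library numbers, the log2 fold change with amiloride in KMS12-BM was 6.18 for ZNNT1, 2.05 for LINC00899, -1.45 for NEAT1 and -0.40 for MALAT1, and the block moved no count over all genes by over 1.5 times. In the comparisons that the sets pair, it changed no call of a named gene (the 4 genes aside) other than those given above and that of ZNRD2 with TG003 in JJN3, which passed (log2 0.30, adjusted p = 0.0333). Genes called with amiloride in KMS12-BM ranged from 10163 to 10957 with a library left out. No other scaling moved a median by over 0.1 on the log2 scale. Of 207 named gene results, 168 were alike under every setting and none reversed. In the lists, 30 of 975 values moved beyond their limits. The nearest genes by correlation changed under 11 of 12 other settings. ZNNT1 in untreated KMS12-BM rests on 13 to 46 reads.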
